A study of Mus musculus with 6 samples.

Results

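Probe sets were examined for 8 genes that mark the primitive streak and the posterior epiblast or answer to Wnt signalling there, namely T, Nkx1-2, Cdx1, Sp5, Wnt3, Wnt8a, Mixl1 and Evx1, in undifferentiated mouse induced pluripotent stem cells (iPSCs). Every probe set whose array annotation names 1 of these genes alone was taken, which gave 9 probe sets for 7 genes out of 45037 probe sets and 18193 genes. No probe set carries the symbol T in that annotation, so T has no value. Nkx1-2 had 3 probe sets, and each of the other 6 genes had 1. The genes were chosen by their role but selected on signals of these same 6 arrays, with the difference between the groups in view and Nkx1-2 known to be among the largest, so their values are a description, without a test.

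The iPSCs came from Nanog-GFP mouse embryonic fibroblasts that were transduced with retroviral Oct3/4, Sox2, Klf4 and c-Myc and grown on SNL feeder cells, and each clone was measured on 1 array. The 3 (−)/(+) clones, numbered 1, 2 and 3, were reprogrammed without 3i and received it only for maintenance. The 3 (+)/(+) clones, numbered 4, 5 and 6, received it in both phases, so all 6 clones were in 3i when the groups were compared. The mixture 3i holds CHIR99021, an inhibitor of GSK3, PD184352, which blocks activation of ERK, and SU5402, an inhibitor of the FGF receptor. The methods do not say whether feeder cells were removed before RNA was taken for the arrays.

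In the gastrulating embryo, Wnt3 in the posterior epiblast and the visceral endoderm starts the primitive streak, the site where mesoderm and endoderm arise. When a Wnt ligand binds its receptors, or when GSK3 is inhibited, β-catenin is no longer degraded and joins TCF and LEF proteins at target genes such as T, Cdx1 and Sp5. In pluripotent cells the same pathway supports self-renewal, chiefly by lifting repression by Tcf7l1, while prolonged Wnt activity without FGF and ERK inhibition favours streak genes.

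The markers of the labelled cell type were present: 10 of 10 genes of the undifferentiated state, among them Pou5f1, Nanog and Esrrb, lay above the median of all probe sets on every array. Of 7 markers of mesoderm formed after the streak, 0 to 4 lay above it in a clone, and of 4 markers of definitive endoderm, 0 to 2. The deposited MAS 5.0 signals are linear, with array medians between 64.1 and 75.7 and lower medians in all 3 (+)/(+) clones. The 22518 probe sets with the higher mean log2(signal + 16) were tested with limma, and those below, whose signals are small against their own spread, were not. Of the 9 probe sets of the streak and posterior genes, 3 were bright enough to be tested, 1 each of Nkx1-2, Cdx1 and Sp5. A probe set was called at a Benjamini-Hochberg adjusted p under 0.05. In all, 703 (3.12%) were called, 398 (1.77%) lower and 305 (1.35%) higher in the (+)/(+) clones. With each array scaled to a common median, the median difference of all tested probe sets moved by 0.15 on the log2 scale, and the calls were 237 lower and 916 higher (79.4% higher, against 43.4%).

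Nkx1-2 showed the widest separation of the groups. It encodes a homeodomain factor of the caudal epiblast beside the streak, a region from which spinal cord and posterior mesoderm are formed. Its brightest probe set, 1422050_at, read 102, 215 and 174 in (−)/(+) clones 1, 2 and 3, against 59.1, 41.0 and 60.0 in (+)/(+) clones 4, 5 and 6. All 3 (−)/(+) clones lay above the median of their array and all 3 (+)/(+) clones below it, and the groups did not overlap. The means were 164 ± 57.4 and 53.4 ± 10.7 (SD, n = 3 each), a ratio of 3.07, and the difference of log2(signal + 16) was -1.33 with a standard error of 0.27 and a 95% interval of -1.93 to -0.74 from limma. It was the 1 probe set of the 9 that was called, in a background of 1.77% called lower, and it passed the filter through the (−)/(+) clones, so this count supports nothing about the group. The call was kept without clone 1 and lost without any 1 of clones 2, 3, 4, 5 and 6. The difference stayed between -1.61 and -1.12 in all 6 of these fits.

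The other 2 probe sets of Nkx1-2 were dim on every array. Probe set 1422049_at read 38.4, 38.9 and 19.7 without 3i in reprogramming, against 4.78, 25.0 and 9.35 with it. Clone 5 lay above clone 3, so the groups overlapped, and the difference was -0.77 (95% interval -1.52 to -0.02). Probe set 1426177_a_at had 25.0, 20.1 and 30.0 against 11.9, 17.5 and 27.0, with clone 6 among the (−)/(+) values and a difference of -0.25 (95% interval -0.88 to 0.37). The sign was the same in all 3 probe sets of Nkx1-2, and the size was not.

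Most markers of fibroblasts moved the same way as Nkx1-2. A negative difference was seen in 10 of the 11 tested, beside 57.6% of all tested probe sets. Postn had a positive one (0.22), as did Lum (0.12), which was not tested. The summed signal of 15 fibroblast and feeder markers lay between 4319 and 5938 in the (−)/(+) clones and between 2392 and 2725 in the (+)/(+) clones. Col1a2 was the largest part of the sums, with 1746 ± 330 and 573 ± 114 (SD, n = 3 each). Of the 11 tested, 4 were called lower (Col1a2, Col3a1, Col5a2 and Acta2) and 0 higher, against 1.41% lower and 1.55% higher of 11177 genes with 1 probe set each. None of the 15 was listed at 0, and the lowest value was 0.83, for Lum in clone 4. Their part in the differences of Nkx1-2 and of the other genes below was not tested, and in bulk RNA fewer cells of a type and less RNA per cell cannot be told apart.

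Cdx1 and Sp5 lay above the array median in all 6 clones. Cdx1 is a caudal-type homeobox gene that answers to Wnt and retinoic acid and sets the Hox genes of the posterior body. Clones 1, 2 and 3 gave a Cdx1 signal of 561, 846 and 615, against 567, 461 and 444 for clones 4, 5 and 6. Clone 2 stood highest, and clone 4 lay just above clone 1, so the groups overlapped. The means were 674 ± 151 and 491 ± 66.8 (SD, n = 3 each), and the difference of -0.43 (standard error 0.17, 95% interval -0.82 to -0.05) was not called. Without clone 2 it was the smallest of the fits that leave out 1 clone, at -0.26.

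Sp5, a zinc finger factor of the Sp family that is induced by β-catenin and in turn dampens other Wnt targets, differed more among the (−)/(+) clones than between the groups. It read 200, 80.2 and 152 in clones 1 to 3, against 100, 103 and 94.5 in clones 4 to 6. Clones 1 and 3 lay above every (+)/(+) clone and clone 2 below every one, while the (+)/(+) clones were nearly level. The means were 144 ± 60.5 and 99.3 ± 4.29 (SD, n = 3 each), and the difference of -0.40 (standard error 0.27, 95% interval -1.01 to 0.21) was not called. Clone 2, the lowest clone for Sp5, was the highest for Nkx1-2 1422050_at and Cdx1.

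**Figure D1:**
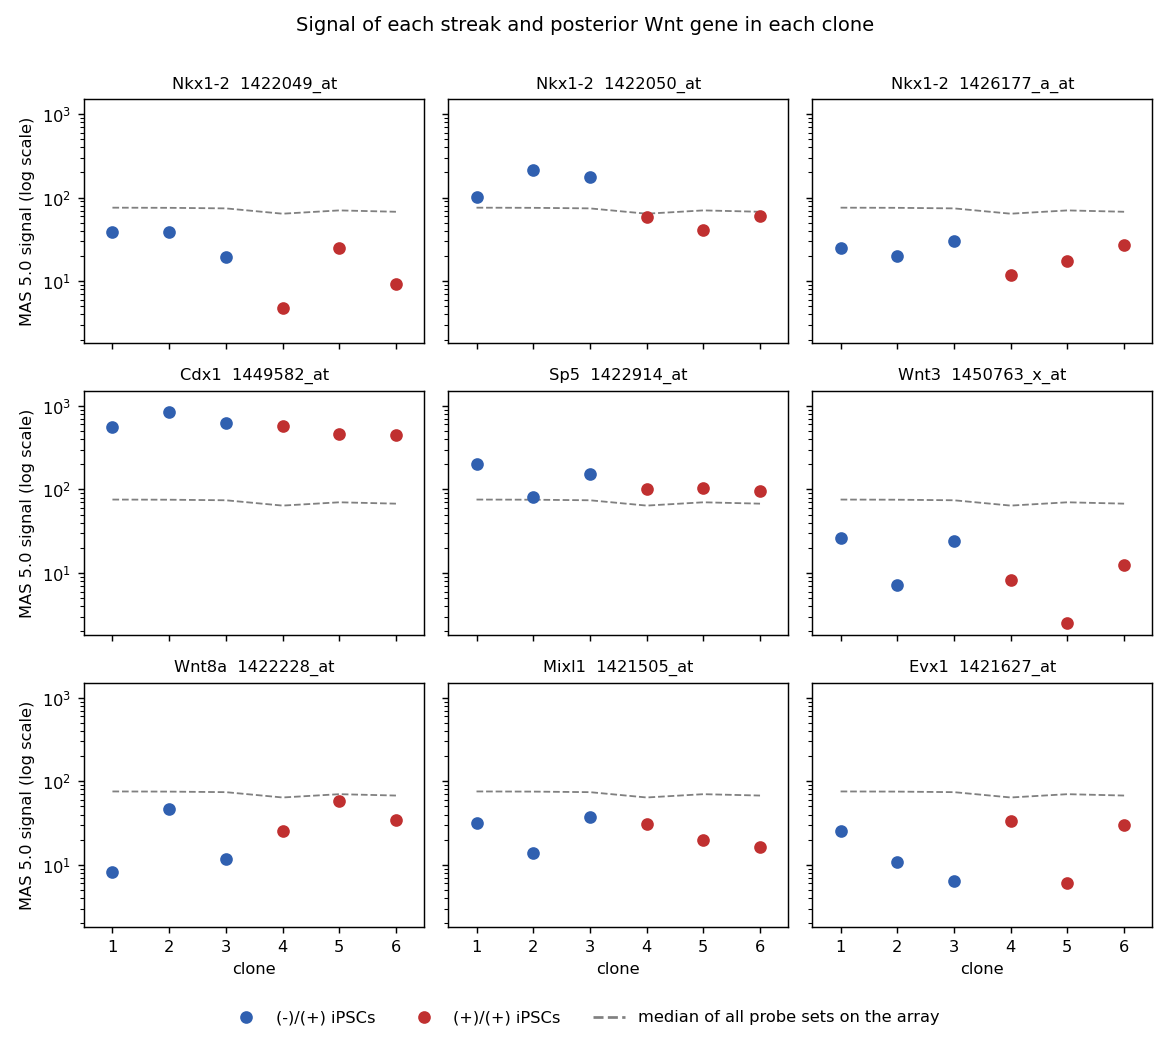
Signal value of each probe set (y axis, log scale) in clones 1 to 6 (x axis). Blue stands for (−)/(+) and red for (+)/(+) iPSCs, and the median of all probe sets on each array is a dashed line. For Nkx1-2 1422050_at the 3 blue points lie above the line and the 3 red points below it, Cdx1 lies above it in every clone, and 6 probe sets lie below it in every clone.

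The stretches before the transcription start of Nkx1-2 and Sp5 are shown because TCF and LEF proteins carry the answer to β-catenin and the windows differ in the letters that these proteins prefer. Each line holds the 250 bases before the RefSeq start on the strand of the gene, 5′ to 3′, from GRCm38.p6. The window of Nkx1-2 is chr7:132599638-132599887 on the minus strand, and that of Sp5 is chr2:70474673-70474922 on the plus strand. Capitals mark CTTTGA or CTTTGT, or their reverse complements TCAAAG and ACAAAG where the match is on the other strand. Both motifs have 6 letters and differ in the last, so they cannot match at the same place.
Nkx1-2: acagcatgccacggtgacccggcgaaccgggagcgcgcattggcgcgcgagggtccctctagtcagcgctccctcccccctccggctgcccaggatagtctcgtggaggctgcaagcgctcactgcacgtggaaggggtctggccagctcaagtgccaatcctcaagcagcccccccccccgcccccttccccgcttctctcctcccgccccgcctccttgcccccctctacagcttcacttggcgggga
Sp5: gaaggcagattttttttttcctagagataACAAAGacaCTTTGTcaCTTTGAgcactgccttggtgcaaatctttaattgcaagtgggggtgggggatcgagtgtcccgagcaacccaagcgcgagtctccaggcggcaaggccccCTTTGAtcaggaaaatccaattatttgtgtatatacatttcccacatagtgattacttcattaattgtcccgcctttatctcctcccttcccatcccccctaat
The Sp5 window held 4 matches, at 221 to 216, 212 to 207, 204 to 199 and 104 to 99 bases before the start, of which 3 stand close together at its far end. Of 32851 windows of this length, 27.6% held at least 1 match, 5.15% at least 2 and 0.0944% at least 4. The Nkx1-2 window held 0, as did 72.4% of all windows, and those of Wnt3 and Evx1 held 0 as well. T, which has no signal here, had 1. Windows were read for these 5 genes only. Those of Cdx1, Wnt8a and Mixl1 were not read, so their matches are not known here. A match is a run of letters and not a shown binding site, and other sites can lie outside the window. G and C made up 46% of the Sp5 window and 69.6% of the Nkx1-2 window. The shares over all windows were not matched for base composition.

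Both Wnt ligands were dim on every array. Wnt3, the ligand that starts the streak, is measured by 1450763_x_at, a kind of probe set whose probes can also bind other transcripts. It read 26.6, 7.21 and 24.2 in clones 1 to 3, against 8.20, 2.54 and 12.6 in clones 4 to 6. Clones 1 and 3 were above every (+)/(+) clone and clone 2 was not, the same order of the (−)/(+) clones as for Sp5 in which clone 2 is lowest, and the difference was -0.54 (95% interval -1.24 to 0.15). Wnt8a, a ligand of the posterior epiblast and early streak, read 8.21, 46.5 and 11.8 in clones 1 to 3, against 25.1, 58.6 and 34.1 in clones 4 to 6. Here clone 2 lay among the (+)/(+) clones, and the difference was 0.62 (95% interval -0.29 to 1.54).

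The remaining homeobox genes were dim too. Mixl1, a paired-type homeobox gene of the streak and of nascent mesoderm and endoderm, read 31.4, 13.8 and 37.5 in clones 1 to 3, against 30.7, 19.7 and 16.6 in clones 4 to 6, with a difference of -0.16 (95% interval -0.86 to 0.55). Its sign changed without clone 3, when the difference was 0.01. Evx1, an even-skipped homeobox gene of the posterior streak, had 25.6, 10.7 and 6.46 against 33.4, 6.11 and 29.9, with a difference of 0.34 (95% interval -0.51 to 1.18). In Mixl1 and Evx1 each group held both high and low clones. Signals of this size cannot show whether these 4 genes were expressed.

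**Figure D2:**
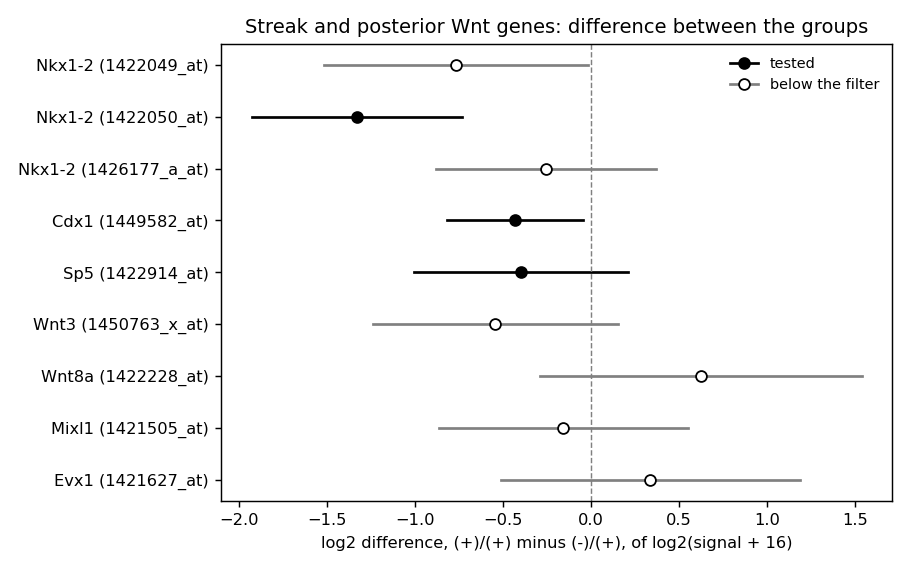
Difference of log2(signal + 16), (+)/(+) minus (−)/(+), for each probe set on the x axis, with 95% intervals from limma as bars (3 clones per group); filled points were tested and open points, taken from the fit without a filter, are below it. Nkx1-2 1422050_at lies at -1.33, and 6 of the 9 intervals include 0.

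Of the 9 differences 7 were negative, beside 58.5% of all 45037 probe sets (57.6% of the tested and 59.3% of the others). The 3 probe sets of Nkx1-2 are among these 7, so the 7 are not separate genes. Groups were apart in 1 of the 9, lower in the (+)/(+) clones, beside 12.9% of all probe sets, and 0 were apart the other way, beside 7.2%. Among tested probe sets these shares were 16.6% and 10.5%. The ratio of the highest to the lowest of the 6 clones was 1.90 for Cdx1, 2.50 for Sp5 and 5.25 for Nkx1-2 1422050_at. The order of clones was not shared. Within the (−)/(+) group, clone 2 was the highest for Nkx1-2 1422050_at, Cdx1 and Wnt8a and the lowest for Sp5, Wnt3 and Mixl1.

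Genes around Evx1 were shifted in 2 clones. For each gene the 20 nearest genes along its chromosome with a mean signal above 500 were taken, 10 on each side, and each clone was set against the median of all 6 clones. Around Evx1 on chromosome 6 the median shift on the log2 scale was -0.71 in clone 2 and -0.57 in clone 3, and between -0.04 and 0.15 in the other 4 clones. Evx1 itself read 10.7 and 6.46 in clones 2 and 3, and also 6.11 in clone 5, whose neighbours were not shifted. Around Wnt3 on chromosome 11 the shift was 0.23 in clone 1, the clone with the highest Wnt3 signal, and between -0.08 and 0.05 in the others. Over 502 genes of chromosome 11 clone 1 stood at 0.27. Around Nkx1-2 it lay between -0.07 and 0.03. Around Cdx1 it lay between -0.01 and 0.02. Around Sp5 clone 3 was at -0.15, although its Sp5 signal was the second highest. The part of these shifts in the values of the genes themselves was not tested.

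**Figure D3:**
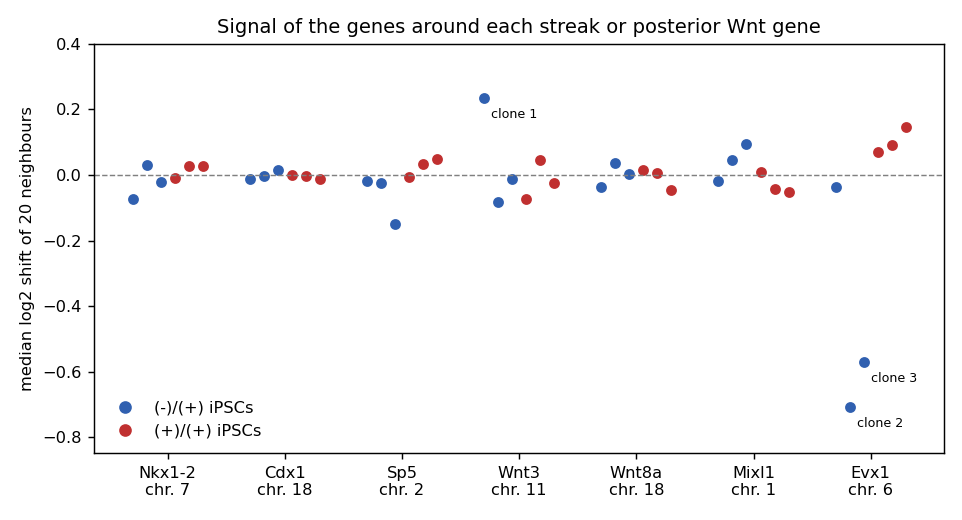
Median log2 shift of the 20 neighbouring genes against the 6-clone median (y axis) around each gene (x axis, with its chromosome), blue for (−)/(+) and red for (+)/(+) clones. Clones 2 and 3 lie at -0.71 and -0.57 around Evx1 and clone 1 at 0.23 around Wnt3, and all other points lie between -0.15 and 0.15.

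Other genes of the streak and the posterior body gave no calls. Of 31 such genes 29 had a probe set and 15 were tested, and 0 were called lower or higher in limma. At an unadjusted p under 0.05 in limma there was 1 of 15, beside 4778 of all 22518 tested probe sets. The methods' t-test also called 0 before and after adjustment. The median difference was 0.04, beside -0.05 for all tested probe sets. The 3 with the highest signals are genes that pluripotent cells also express: Tdgf1, the co-receptor of Nodal, had 23544 ± 424 and 25251 ± 2022, Sall4, a zinc finger factor, 9106 ± 861 and 9284 ± 391, and Fgf4 3757 ± 345 and 3905 ± 708 in the (−)/(+) and (+)/(+) clones (SD, n = 3 each). The other genes of this paragraph were named after their values were seen. Dusp6, a phosphatase induced by ERK, had 670, 1510 and 1031 against 1728, 1470 and 1446, with overlapping groups, and was called higher only without clone 2 (adjusted p = 0.044 from limma, and 0.18 with all clones). Fst, the activin antagonist follistatin, had 215, 780 and 467 against 168, 316 and 248 and was called lower without clone 1 (adjusted p = 0.032 from limma, and 0.25 with all clones), and again without clones 1 and 4 (0.045), when Bmp4 was lower too (0.0096).

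Of the Wnt feedback targets and TCF genes, 22 of 23 had a probe set, 17 were tested, and 2 were called lower and 0 higher, beside 1.41% and 1.55% of all tested genes. The median difference was -0.28, beside -0.05 for all tested probe sets. At an unadjusted p under 0.05 in limma were 5 of the 17 genes, beside 4778 of all 22518 tested probe sets. Of these 5 genes 4 had negative differences and Apcdd1 a positive one. Both called genes are D-type cyclins, which drive cells from G1 into S phase. Ccnd1 had 2645, 3066 and 4067 in clones 1 to 3, against 1954, 1907 and 1698 in clones 4 to 6, without overlap, a difference of -0.79 (standard error 0.15, adjusted p = 0.027 from limma). Ccnd2 had 618, 884 and 995 against 421, 401 and 432, without overlap, a difference of -0.94 (standard error 0.17, adjusted p = 0.023 from limma). All 3 probe sets of Ccnd1 and 5 of the 6 tested for Ccnd2 were called lower. Ccnd1 was not called without clone 3, 4, 5 or 6 (adjusted p = 0.074, 0.065, 0.075 and 0.13 from limma), nor Ccnd2 without clone 2, 3, 4, 5 or 6 (0.054, 0.086, 0.067, 0.079 and 0.10). Axin2, a scaffold of the β-catenin destruction complex and a common readout of Wnt activity, was looked up after its values were seen. It had 387, 293 and 438 against 287, 245 and 305, with clone 2 below clone 6, and was not called (difference -0.38, adjusted p = 0.24 from limma). Znrf3, Nkd1 and Notum, looked up afterwards too, were not called either (adjusted p = 0.16, 0.64 and 0.69 from limma). Axin2, Znrf3 and Notum lie on chromosome 11, where clone 1 stood at 0.27, and the part of that shift was not tested. Apcdd1, an inhibitor of Wnt signalling at the cell surface and likewise looked up afterwards, had 378, 394 and 469 against 472, 655 and 651, with every (+)/(+) clone above every (−)/(+) clone. Its difference of 0.49 was not called (adjusted p = 0.13 from limma) except with a common median (0.65, adjusted p = 0.041).

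Of the receptors and transducers, all 31 had a probe set, 29 were tested, and 1 was called lower and 0 higher, beside 1.41% and 1.55% of all tested genes. The median difference was -0.10, beside -0.05 for all tested probe sets. Of 29 differences 21 were negative, beside 57.6% of all tested probe sets. In 8 the groups were apart with the (+)/(+) clones lower and in 2 with them higher, beside 16.6% and 10.5%. These shares are over probe sets, while the list takes 1 probe set a gene. The list median of -0.10 is smaller in size than the move of 0.15 with arrays scaled to a common median. At an unadjusted p under 0.05 in limma there were 5 of 29, a smaller share than the 4778 of all 22518 tested probe sets. These 5 were Btrc, Dvl1, Dvl2, Wls and Apc, all with negative differences. The last 4 were named after their values were seen, as was Ctnnb1, the gene of β-catenin. Ctnnb1 had 16222, 15300 and 16087 against 17892, 16891 and 16989 (difference 0.12, adjusted p = 0.36 from limma). Every (+)/(+) clone lay above every (−)/(+) clone, and Ctnnb1 was called higher in the methods' t-test before adjustment alone. Dvl1 and Dvl2, which relay the signal from the receptors, had differences of -0.36 and -0.53, and Wls, which carries Wnt ligands to the cell surface, had -0.39 (adjusted p = 0.099, 0.14 and 0.22 from limma). With arrayWeights Dvl1 and Wls were called too (adjusted p = 0.034 and 0.039 from limma). Dvl2 had 651, 486 and 407 against 295, 380 and 367. It lies on chromosome 11, where clone 1 stood at 0.27, and the part of that shift was not tested. The called gene was Btrc, which encodes the ubiquitin ligase subunit that marks β-catenin for degradation, with 170, 316 and 291 against 125, 124 and 94.0 (difference -1.04, standard error 0.24, adjusted p = 0.044 from limma). Its second tested probe set had a difference of 0.00 (adjusted p = 0.99 from limma), and the call was lost without clone 2, 3, 4, 5 or 6 (adjusted p = 0.11, 0.14, 0.095, 0.096 and 0.18).

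Of 17 other Wnt ligands, 4 were bright enough to be tested and 0 were called in limma. Beside 4778 of all 22518 tested probe sets at an unadjusted p under 0.05 in limma, these ligands had 1. That was Wnt4, with 116, 108 and 108 against 45.3, 67.1 and 49.8, groups that did not overlap. It lay above the array median in the (−)/(+) clones alone and passed the filter through them, so its p-values carry little weight. The difference was -0.86 (standard error 0.21, adjusted p = 0.054 from limma). It was called with eBayes without trend (adjusted p = 0.043) and with arrayWeights (0.022), and over all limma settings that tested it its adjusted p lay between 0.022 and 0.19. Wnt7b had 129 ± 37.4 and 137 ± 26.9 and Wnt6 99.2 ± 16.5 and 86.8 ± 9.61 (SD, n = 3 each), and neither was called.

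**Figure D4:**
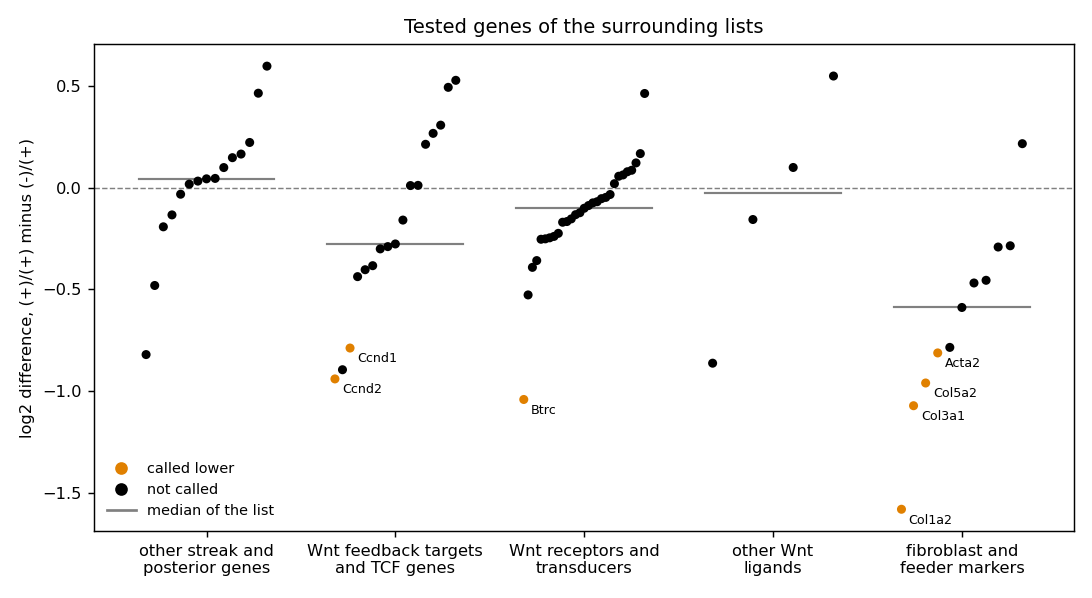
Difference of log2(signal + 16), (+)/(+) minus (−)/(+), for each tested gene (points, sorted within a group) of 4 lists of streak and Wnt genes and of the fibroblast markers, with orange points for genes called lower and a grey line at the median of each list. The medians are 0.04, -0.28, -0.10, -0.03 and -0.59 from left to right, and no gene was called higher.

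Genes with a profile like that of Nkx1-2 were sought among 19806 tested probe sets with 1 gene symbol, by the root mean square difference of log2 values centred on the mean of the 6 clones. The nearest were Sbno2 (0.15), Mcc (0.16), Slc6a15 (0.17) and Ccnd2 by its probe set 1430127_a_at (0.19), beside a median of 0.74 over all probe sets and a root mean square of 0.74 for Nkx1-2 itself. Sbno2, a gene of the strawberry notch family, read 85.1, 136 and 111, against 45.3, 29.3 and 48.3. Slc6a15, a transporter of neutral amino acids, read 164, 304 and 344 against 125, 89.5 and 120. In all 4 clone 1 was the lowest (−)/(+) clone and the groups did not overlap, as in Nkx1-2, since the choice was made on the profile.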

How the data were processed

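Total RNA of 6 iPSC clones, 3 per group, was hybridised to Affymetrix mouse arrays, 1 array per clone. The deposited values are MAS 5.0 signal intensities, which the authors scaled on each array to a common trimmed mean. The number of arrays limits the precision. With 1 array per clone, p-values measure the spread between clones together with that of RNA preparation and array. The methods do not say whether the clones of a group came from separate transductions. From 45101 probe sets, 64 controls were left out. The array annotation gave 34945 probe sets 1 gene symbol, 932 several and 9160 none, and 34741 of the first matched RefSeq. Signals were taken as log2(signal + 16), and the brighter 22518, by their mean over 6 clones against the middle value, went into limma 3.58.1 in R 4.3.3 (lmFit, eBayes with trend, two-sided), with Benjamini-Hochberg adjustment over all tested and a threshold of 0.05. Differences of dimmer probe sets come from the fit without a filter. Each listed gene stands by its brightest probe set.

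The genes and lists were chosen with earlier results of these data known. Named were all 8 genes, at most 4 called genes per surrounding list in order of adjusted p, the 3 brightest of a list without calls, and the 4 genes with the profile nearest to that of Nkx1-2. The same search for T could not be made. The code was tested on simulated data. Promoter windows came from RefSeq (GRCm38.p6) and were read with Python 3.11.15. Alternatives changed the normalization, pseudocount, filter, variance model and array weights, left out clones, or used the methods' t-test.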

Additional observations from a re-analysis of the deposited data

How the results depend on the processing

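Counts below are lower and higher calls over all probe sets, beside 398 and 305 (43.4% higher). They were 255 and 287 with quantile normalization (53.0% higher), 237 and 916 with a common median (79.4%), 120 and 101 without a filter, 165 and 215 at a mean signal above 500 (56.6%), 178 and 87 with eBayes without trend (32.8%) and 1512 and 1015 with arrayWeights. The methods' t-test gave 2427 and 1572 unadjusted and 1 and 0 after Benjamini-Hochberg adjustment, and the fit without clones 1 and 4 gave 510 and 510. Leaving out 1 clone gave 25 to 512 lower and 27 to 441 higher.

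Of the 9 probe sets 1 was called lower, and 0 were with quantile normalization, no filter, eBayes without trend, a mean signal above 500 (which leaves Nkx1-2 and Sp5 untested) and the adjusted t-test, and 0 to 1 leaving out 1 clone. The Nkx1-2 1422050_at difference was -0.93 at a pseudocount of 64. That of 1422049_at was -1.46 and -0.32 at pseudocounts of 1 and 64, and that of Wnt3 -1.23 at 1. Every sign was kept in all settings with a difference except that of Mixl1 without clone 3.

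The list of Wnt feedback targets and TCF genes had 2 lower calls, the cyclins Ccnd1 and Ccnd2. It had 0 without a filter, with eBayes without trend and in the adjusted t-test, and 0 to 2 leaving out 1 clone. With a common median it had 1 higher call (Apcdd1). Receptors had 1 lower call, and 0 with quantile normalization, a common median, no filter, eBayes without trend, a mean signal above 500, the adjusted t-test and the mean of all probe sets, 3 with arrayWeights, 2 lower and 1 higher in the unadjusted t-test, and 0 to 1 leaving out 1 clone. Other ligands had 1 lower call with eBayes without trend, arrayWeights and the unadjusted t-test. Other streak genes had 2 lower calls without clones 1 and 4, and 0 to 1 in each direction leaving out 1 clone. The causes were not tested. No paired analysis was possible because the clones are numbered 1 to 3 and 4 to 6 and share no number between the groups. Signals near background limit what Wnt3, Wnt8a, Mixl1 and Evx1 can show.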
